A study of Mus musculus with 8 samples.

Results

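Sterol and fatty acid synthesis was examined in corneas of mice with dry eye through 31 genes: 17 enzymes of the mevalonate and sterol route, 4 genes of its control by sterol regulatory element-binding proteins (SREBPs), 9 enzymes of fatty acid synthesis, desaturation and elongation, and the sterol transfer protein gene Stard4. The members were picked by symbol from the 23597 genes of the deposited table, and all 31 were found and were among the 12100 genes tested. All mice had received scopolamine, a muscarinic antagonist that lowers tear secretion, and corneas were taken on day 14 of the injections. The 4 ICI samples came from mice also treated with ICI 118551, which blocks β2-adrenergic receptors. The 4 Scop samples had scopolamine alone. Each sample was a pool of 4 corneas, and the labels give neither the strain nor the mice behind each pool, so a p-value here reflects the spread between 8 pools, part of which may be technical. Every group had dry eye, and no healthy cornea was analysed here. RNA abundance is given as FPKM, a fragment count divided by the length of the gene and the size of the library, so that levels of different genes can be set side by side.

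Cholesterol is built from acetyl-CoA through mevalonate, isoprenoid diphosphates, squalene and lanosterol, and most of the enzymes are encoded by targets of SREBP-2, the product of Srebf2. When membrane sterol is low, the escort protein SCAP carries SREBPs from the endoplasmic reticulum to the Golgi for cleavage, and INSIG proteins hold the complex back when sterol is plentiful. Fatty acid synthesis starts from the same acetyl-CoA and is driven more by SREBP-1, the product of Srebf1. The corneal epithelium renews itself continuously and has no blood vessels of its own, so dividing cells need new membrane lipid.

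Promoter sequences show what the members share beside their roles. RefSeq windows of build GRCm38.p6, from 250 bases before to 50 bases after a gene start, were at hand for 25 of the 31 genes (32 windows, since some genes have several starts). Each window was searched on both strands for CCAAT, the letters bound by NF-Y, for GGGCGG, the core of an Sp1 site, for CACGTG, an E-box, and for TCACNCCAC, a strict form of the sterol regulatory element; these motifs share no full match with each other. CCAAT was found in 71.9% of the member windows, against 37.4% of all 32851 windows and 37.7% of the 12171 windows of tested genes, and 22 of the 25 genes held it. GGGCGG was found in 75.0% of the member windows, against 35.7% of all windows and 62.8% of those of tested genes. CACGTG was found in 21.9% (7 of 32 windows, in 6 genes), against 7.15% and 9.93%. Overlapping windows of Scap share a CACGTG and a GGGCGG site, so each of these sites counts in both windows. TCACNCCAC was found in 1 member window, that of Hmgcs1 (3.12%, against 1.24% and 1.13%). Median GC content was 62.3% in the member windows, 52.7% in all windows and 60.7% in those of tested genes. A match describes letters in a window and is no measurement of binding.

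The 200 bases before the start are shown for 5 genes whose values are described further on: Hmgcs1, which had another order of libraries than the other sterol enzymes, Insig1, Lss and Msmo1, which were high in ICI replicate 3, and Fasn, which was below Scop in ICI at an unadjusted p. Each is written 5′ to 3′ in the direction of transcription, with capitals on CCAAT (or its reverse complement ATTGG), on the TCACNCCAC match and on CACGTG. The windows are those at chr13:119690151-119690350, plus strand for Hmgcs1, chr5:28071212-28071411, plus strand for Insig1, chr10:76531405-76531604, plus strand for Lss, chr8:64733579-64733778, minus strand for Msmo1 and chr11:120824548-120824747, minus strand for Fasn, all in GRCm38.p6. For Fasn and Lss the start used for the window lies inside the RefSeq gene. The Fasn gene runs to 120825166, so the whole Fasn stretch lies within it. The Lss gene begins at 76531565, so the last part of the Lss stretch lies within it.
Hmgcs1: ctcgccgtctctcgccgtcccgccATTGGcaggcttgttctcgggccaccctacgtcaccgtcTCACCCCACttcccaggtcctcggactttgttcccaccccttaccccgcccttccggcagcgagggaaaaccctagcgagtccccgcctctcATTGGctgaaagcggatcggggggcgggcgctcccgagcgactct
Insig1: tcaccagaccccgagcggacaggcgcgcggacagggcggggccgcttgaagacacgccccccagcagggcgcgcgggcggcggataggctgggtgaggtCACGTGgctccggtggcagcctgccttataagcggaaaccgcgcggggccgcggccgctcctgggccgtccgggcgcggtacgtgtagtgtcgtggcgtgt
Lss: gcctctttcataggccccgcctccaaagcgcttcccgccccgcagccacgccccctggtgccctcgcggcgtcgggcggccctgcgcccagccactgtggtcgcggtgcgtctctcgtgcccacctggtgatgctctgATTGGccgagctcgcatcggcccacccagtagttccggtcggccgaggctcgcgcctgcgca
Msmo1: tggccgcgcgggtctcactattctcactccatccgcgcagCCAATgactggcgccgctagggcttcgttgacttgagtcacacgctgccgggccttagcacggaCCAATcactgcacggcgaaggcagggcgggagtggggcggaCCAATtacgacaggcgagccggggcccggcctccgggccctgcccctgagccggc
Fasn: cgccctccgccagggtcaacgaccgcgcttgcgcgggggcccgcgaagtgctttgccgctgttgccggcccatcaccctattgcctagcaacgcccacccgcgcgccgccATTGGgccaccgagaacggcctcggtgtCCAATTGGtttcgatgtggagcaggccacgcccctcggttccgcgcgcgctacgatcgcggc
In the stretch of Hmgcs1 the TCACNCCAC match lies between ATTGG matches on either side. Msmo1 holds CCAAT 3 times, Lss holds ATTGG once, Insig1 holds CACGTG and no CCAAT in these 200 bases, and Fasn holds ATTGG once and a CCAATTGG palindrome that counts for both strands.

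Fragments worked out from the spacing of FPKM values summed to between 34354346 and 39885822 per library, without 57 genes that could not be recovered. The 7 markers of corneal epithelium had the largest sum of any marker list. They summed to between 34780 and 37037.5 FPKM in ICI and between 34837 and 39425.5 in Scop, where all genes of a library summed to between 434149 and 448239. Summed over 9 keratocyte markers, levels lay between 1968 and 2624 FPKM in ICI and between 806 and 2230.1 in Scop, lowest in Scop replicate 3. The 6 markers of corneal endothelium summed to 575 FPKM in ICI replicate 1 and to between 259 and 279 in the other ICI libraries, against 216 to 384 in Scop. A set of 7 conjunctival and goblet cell markers, of which 6 were in the table, summed to between 1195 and 1262 FPKM in ICI and between 1117 and 1864 in Scop, highest in Scop replicate 3. Most of this sum came from the keratin gene Krt13, with a mean of 996 FPKM in ICI and 1073 in Scop. The goblet cell markers Spdef and Clca1 stayed below 0.5 in every library, and Muc5ac was not in the table. Gm26917, AY036118 and Lars2, loci that collect reads of ribosomal RNA, summed to between 3826 and 3995 FPKM in ICI, to between 717 and 1177 in Scop replicates 1 to 3 and to 5113 in Scop replicate 4. Lipid-secreting glands of the lid left little trace: 10 sebaceous and meibomian markers summed to between 1.08 and 1.55 FPKM in ICI and between 1.11 and 3.17 in Scop, with Awat1, Awat2, Mc5r, Elovl3, Dgat2l6, Far2 and Krt79 below 0.5 in every library. The 5 adipocyte markers in the table stayed below 0.5 in every library too. The part of keratocyte, endothelial, conjunctival and ribosomal RNA shares in the member values was not tested, and in such bulk samples fewer cells of a type and less RNA per cell cannot be told apart.

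The pathway was well expressed in every library. The members' mean levels over the 8 libraries had a median of 26.5 FPKM, against 7.26 for all tested genes, and 30 of the 31 stood above that value. Their fragment counts ran from 838 (Tm7sf2 in Scop replicate 4) to 109106 (Scd2 in ICI replicate 3), so the counting error was at most 3.45% of a value, and this covers counting error only. The plot of levels by gene shows the order.

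**Figure D1:**
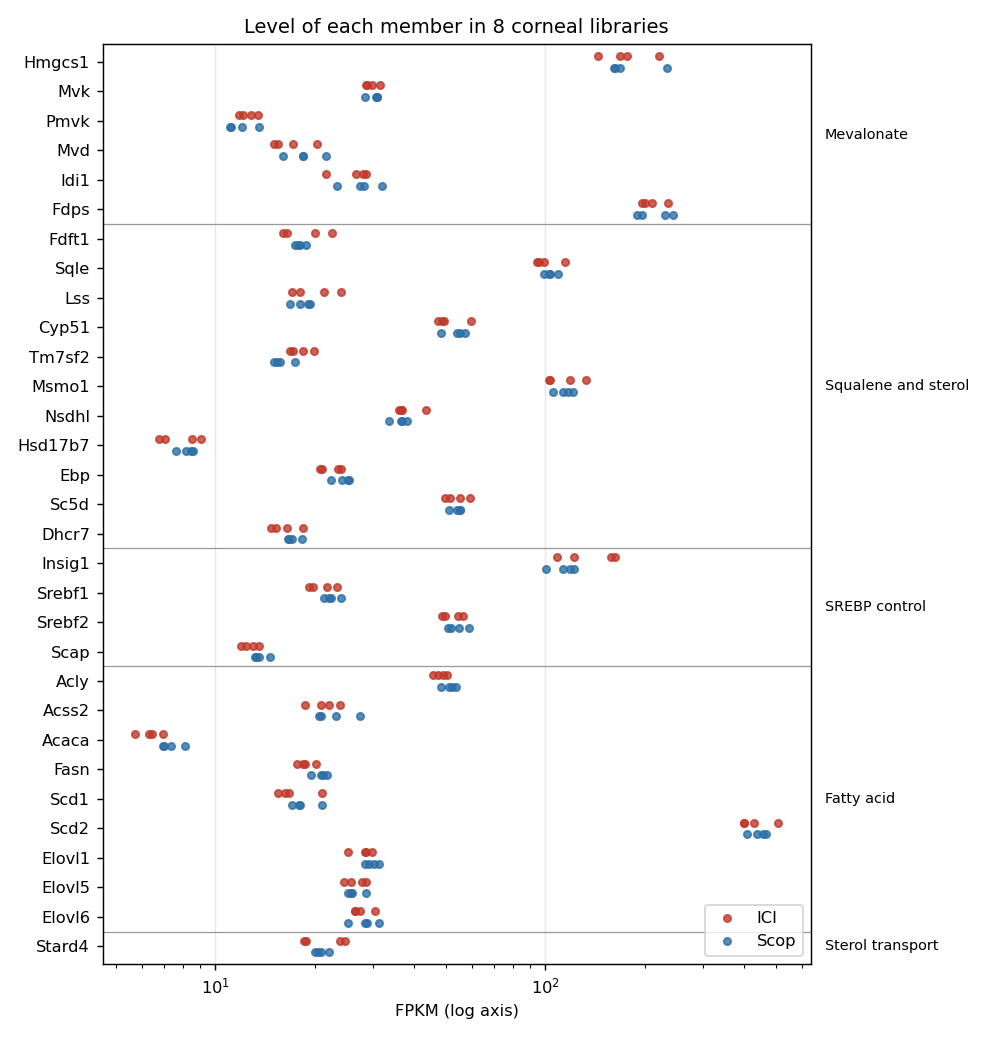
FPKM on a log axis for the 31 members, with 1 dot per library, ICI above Scop in each row. Scd2, Fdps and Hmgcs1 are the highest and Acaca is the lowest, and the dots of ICI and Scop lie among each other in nearly every row.

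Scd2, a stearoyl-CoA desaturase that puts the first double bond into saturated fatty acids, was the highest member. It stood at 399, 399.6, 508 and 427 FPKM in ICI replicates 1 to 4, against 467, 437, 408 and 455 in Scop replicates 1 to 4 (the order of replicates in all such lists below). The groups overlapped, with both the lowest and the highest library in ICI. Its neighbour on chromosome 19, Scd1 (44394450 to 44407709, with Scd2 at 44293676 to 44306864), encodes the desaturase best known from liver and sebaceous glands and was at 16.7, 16.2, 21.0 and 15.5 FPKM in ICI, against 18.0, 17.1, 21.1 and 17.9 in Scop. Scd2 thus stood at between 23.9 and 27.5 times the level of Scd1 in ICI, and between 19.3 and 25.9 times in Scop, lowest in Scop replicate 3. The 2 genes are close relatives, and how reads matching both were counted is not given in the sources used here, so the ratio is uncertain.

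Fdps, which makes farnesyl diphosphate, the branch point to sterols and protein prenylation, was next, at 210.0, 201, 236 and 196 FPKM in ICI, against 196, 189, 244 and 230.2 in Scop. Hmgcs1, which makes HMG-CoA in the cytosol, was at 144, 168, 177 and 221 FPKM in ICI, against 162, 233, 168 and 162 in Scop. Both overlapped between the groups. At the lower end, Pmvk, the phosphomevalonate kinase, was at 12.1, 12.8, 13.4 and 11.8 FPKM in ICI, against 11.2, 12.1, 13.6 and 11.1 in Scop. Hsd17b7, a reductase that acts on sterol ketones, was at 7.04, 8.52, 9.03 and 6.75 FPKM in ICI, against 8.41, 8.14, 8.56 and 7.59 in Scop. Acaca, the acetyl-CoA carboxylase that commits acetyl-CoA to fatty acids, was the lowest member.

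Setting ICI against Scop addresses what blocking β2-adrenergic signalling does to corneal transcripts in dry eye. RNA levels of the members differed little at the median, and the intervals of single members are given below. At an unadjusted p under 0.05, Tm7sf2 was higher in ICI and Acaca and Fasn were lower, and the other 28 members did not reach it (limma's moderated test on log2(FPKM + 1)). The same threshold was passed by 4.56% of all tested genes in the higher direction and 7.46% in the lower, 12.0% together, so 3 of 31 members, or 9.68%, lies near the background. After Benjamini-Hochberg adjustment over all 12100 genes limma called no member and 0% of all genes, and limma-voom on the recovered fragments also called none. The smallest adjusted p of a member was 0.355.

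The members' median log2 fold change was -0.04, against -0.02 over all tested genes, and with 1 library left out it ran from -0.08 without ICI replicate 3 to -0.02 without ICI replicate 4. Of the 31 values 23 were negative, where 55.4% of all tested genes had negative values. The 95% intervals of 30 members lay within 0.5 of 0 on the log2 scale. The exception was Insig1, whose interval reached 0.54, a ratio of 1.45. The lowest bound of any member was -0.36, for Mvd. A p that misses the threshold leaves differences inside these intervals possible.

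**Figure D2:**
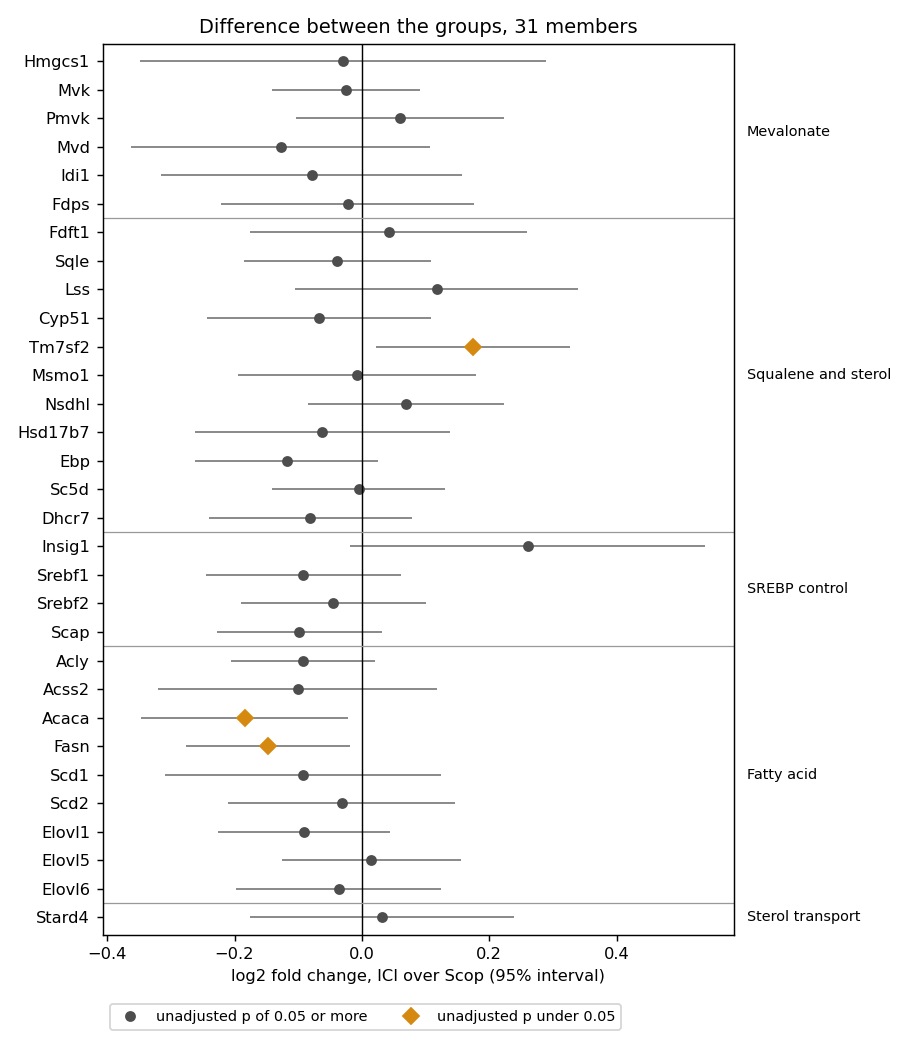
Log2 fold change of each member, ICI over Scop, on the log2(FPKM + 1) scale with limma's 95% interval. Diamonds mark the 3 members at an unadjusted p under 0.05 (Tm7sf2 at 0.17, Acaca at -0.18 and Fasn at -0.15), and all other intervals cross 0.

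Among the 6 mevalonate enzymes no member reached an unadjusted p under 0.05, where 12.0% of all tested genes did. Their median log2 fold change was -0.03. Hmgcs1 had -0.03 (SE 0.14), Fdps -0.02 (SE 0.09), and Mvk, the mevalonate kinase, -0.03 (SE 0.05). Mvd, the decarboxylase that yields isopentenyl diphosphate, had -0.13 (SE 0.11), between -0.21 and -0.06 with 1 library left out. It was at 15.0, 17.2, 20.3 and 15.5 FPKM in ICI, against 18.4, 16.1, 18.4 and 21.7 in Scop, so the groups overlapped. Idi1, the isomerase of that product, had -0.08 (SE 0.11), and Pmvk 0.06 (SE 0.07).

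Of the 11 squalene and sterol enzymes 1, Tm7sf2, a sterol reductase of the inner nuclear membrane and endoplasmic reticulum that acts after lanosterol demethylation (chromosome 19, 6062821 to 6067850), was higher in ICI at an unadjusted p. At that threshold 4.56% of all tested genes were higher. Tm7sf2 was at 18.4, 17.2, 19.8 and 16.8 FPKM in ICI, against 15.1, 15.3, 17.4 and 15.7 in Scop. The groups overlapped because Scop replicate 3 stood above ICI replicates 2 and 4. The means were 18.1 ± 1.38 FPKM in ICI and 15.9 ± 1.07 in Scop (SD, n = 4 each), with a log2 fold change of 0.17 (SE 0.07, limma's unadjusted p = 0.0285, adjusted p = 0.355). The fragments behind it were 838 to 1156, the fewest of any member.

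The other sterol enzymes lay on both sides of 0. Lss, which closes squalene epoxide to lanosterol, had 0.12 (SE 0.10), and 0.03 without ICI replicate 3, and Nsdhl, a decarboxylase of the demethylation steps, 0.07 (SE 0.07). Ebp, the sterol isomerase named for binding emopamil, had -0.12 (SE 0.06), Dhcr7, the reductase of the last step, -0.08 (SE 0.07), and Cyp51, the lanosterol demethylase, -0.07 (SE 0.08). Sqle, the squalene epoxidase and a control point of the pathway, was at 94.2, 98.6, 115 and 95.7 FPKM in ICI, against 103, 99.1, 109 and 102 in Scop. Its log2 fold change was -0.04 with a 95% interval of -0.19 to 0.11. Msmo1 and Sc5d, oxidases of methyl sterols and of the B ring, had -0.01 (SE 0.08) and -0.0049 (SE 0.06), and Fdft1, the squalene synthase, 0.04 (SE 0.10).

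Of the 4 control genes none reached an unadjusted p under 0.05, where 12.0% of all tested genes did. Insig1, itself an SREBP target whose product retains SCAP (chromosome 5, 28071412 to 28078662), had the largest log2 fold change of all members, 0.26 (SE 0.13, limma's unadjusted p = 0.0642, adjusted p = 0.442). It was at 122, 162, 158 and 108 FPKM in ICI, against 119, 113, 122 and 100.3 in Scop. ICI replicates 2 and 3 stood above every Scop library, while ICI replicates 1 and 4 lay within the Scop range. Srebf2 was at 52.3 ± 3.77 FPKM in ICI and 53.9 ± 3.50 in Scop (SD, n = 4 each, as for the next genes). Srebf1 was at 21.0 ± 1.91 FPKM in ICI and 22.4 ± 1.12 in Scop, and Scap, the gene of the escort protein, at 12.7 ± 0.69 FPKM in ICI and 13.7 ± 0.63 in Scop. Their log2 fold changes were -0.04, -0.09 and -0.10. Srebf2 stood at 2.41 to 2.53 times the level of Srebf1 in ICI and at 2.28 to 2.75 times in Scop. Stard4, which moves sterol between membranes, had 0.03 (SE 0.09).

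Of the 9 fatty acid enzymes 2 were below Scop in ICI at an unadjusted p, 0 were higher and 7 did not reach it, where 7.46% of all tested genes were lower. The median of the 9 was -0.09, and 8 of the values were negative, against 55.4% of all tested genes. Acaca (chromosome 11, 84129635 to 84401651) was at 6.43, 5.70, 6.92 and 6.30 FPKM in ICI, against 8.10, 7.31, 6.96 and 6.97 in Scop. It was the only member whose groups did not overlap, by the narrow gap between 6.92 in ICI replicate 3 and 6.96 in Scop replicate 3, where 6.98% of all tested genes had no overlap. The means were 6.34 ± 0.50 FPKM in ICI and 7.34 ± 0.54 in Scop (SD, n = 4 each), with a log2 fold change of -0.18 (SE 0.07, limma's unadjusted p = 0.0300, adjusted p = 0.357).

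Fasn, the fatty acid synthase that builds palmitate (chromosome 11, 120805958 to 120825166), was at 18.4, 18.6, 20.2 and 17.6 FPKM in ICI, against 21.2, 19.5, 20.9 and 21.8 in Scop. ICI replicate 3 lay above Scop replicate 2, and otherwise ICI was below Scop. The means were 18.7 ± 1.08 FPKM in ICI and 20.8 ± 0.97 in Scop (SD, n = 4 each), with a log2 fold change of -0.15 (SE 0.06, limma's unadjusted p = 0.0289, adjusted p = 0.356). Acly, which supplies cytosolic acetyl-CoA from citrate, was at 48.9, 45.5, 50.2 and 47.3 FPKM in ICI, against 53.5, 48.3, 51.1 and 52.1 in Scop, with -0.09 (SE 0.05). Acss2, which makes acetyl-CoA from acetate, had -0.10 (SE 0.10), and Scd1 and Scd2 had -0.09 (SE 0.10) and -0.03 (SE 0.08). The elongases Elovl1, Elovl5 and Elovl6 had -0.09, 0.01 and -0.04.

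**Figure D3:**
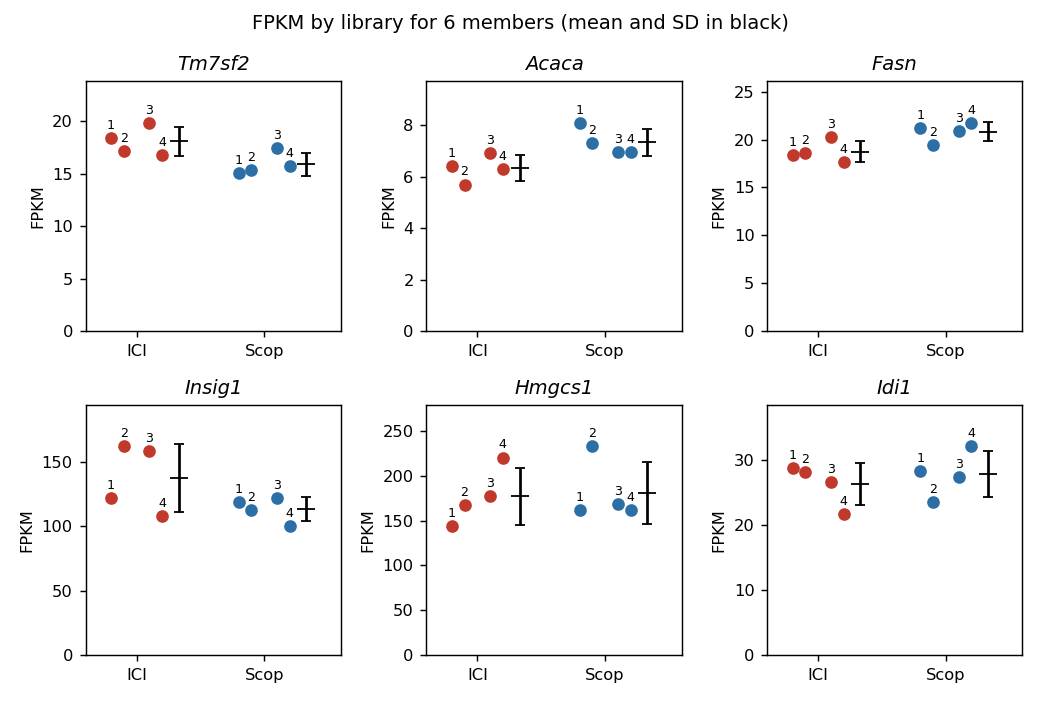
FPKM of 6 members by library, ICI left of Scop, with replicate numbers above the dots and mean and SD in black; axes start at 0. Tm7sf2, Acaca and Fasn are the members at an unadjusted p under 0.05, while the ICI and Scop dots of Insig1, Hmgcs1 and Idi1 overlap.

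None of these 3 calls at the unadjusted threshold held in every refit with 1 library left out. Tm7sf2 lost it without replicate 1 or 3 of ICI, or without replicate 1, 2 or 4 of Scop (limma, highest p 0.0873). Acaca lost the call without replicate 2 or 4 of ICI, or without replicate 1 or 2 of Scop (highest p 0.0877), and Fasn lost it without replicate 1, 2 or 4 of ICI, or without replicate 1 or 4 of Scop (highest p 0.0839). Insig1 came under 0.05 when either of its low ICI libraries was left out: limma's unadjusted p was 0.0446 without replicate 1 and 0.00766 without replicate 4. Directions of these 4 genes did not change in any refit.

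The members varied more within ICI than within Scop, and many sterol enzymes were high or low in the same libraries. ICI replicate 3 was the highest of the 8 libraries for 11 of the 17 mevalonate and sterol enzymes (64.7%), while it was the highest for 9.40% of all tested genes. ICI replicate 4 was the lowest for 8 of the 17 (47.1%), against 9.35% of all tested genes. Across all 31 members the standard deviation of log2(FPKM + 1) was larger within ICI than within Scop for 25 (80.6%), and this held for 43.9% of all tested genes. These shares are descriptions: the genes of a route share libraries and are not independent.

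**Figure D4:**
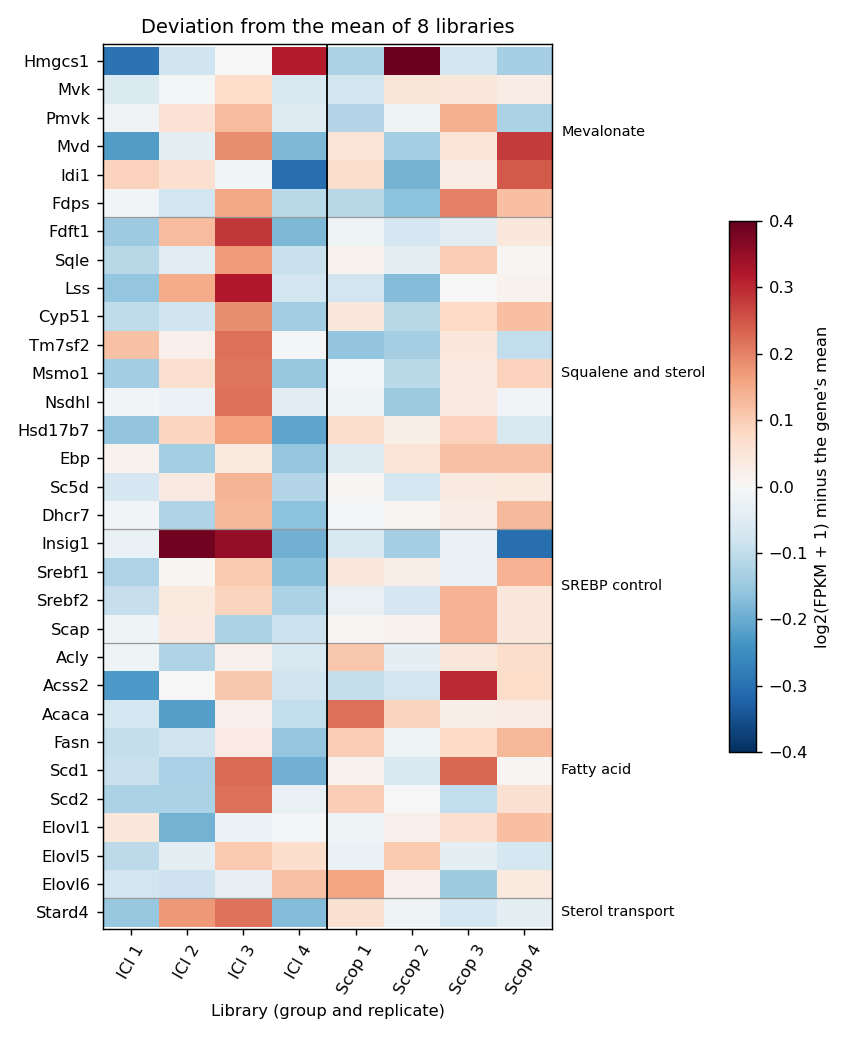
Deviation of log2(FPKM + 1) from the mean of 8 libraries, for each member (rows, in pathway order) and library (columns, ICI left of Scop). The column of ICI replicate 3 is mostly red and that of ICI replicate 4 mostly blue in the sterol block, and the row of Hmgcs1 runs differently, with its highest values in ICI replicate 4 and Scop replicate 2.

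Lss, Fdft1, Msmo1 and Stard4, named after their values had been seen, show this. Lss was at 17.0, 21.3, 24.1 and 18.0 FPKM in ICI, against 18.1, 16.8, 19.1 and 19.3 in Scop. Fdft1 was at 16.5, 20.1, 22.5 and 16.1 FPKM in ICI, against 18.1, 17.4, 17.8 and 18.9 in Scop. Both had ICI replicates 2 and 3 above every Scop library, and ICI replicates 1 and 4 at or below most of them. Msmo1 was at 103, 119, 132 and 102 FPKM in ICI, against 113, 106, 117 and 121 in Scop, and Stard4 at 18.9, 23.9, 24.7 and 18.6 FPKM in ICI, against 22.0, 20.8, 20.1 and 20.5 in Scop. Insig1 shared the high values of ICI replicates 2 and 3. Over the 16 mevalonate and sterol enzymes other than Hmgcs1, the mean deviation from a gene's own mean was -0.06, 0.0047, 0.16 and -0.13 on the log2 scale in ICI, against -0.02, -0.08, 0.06 and 0.06 in Scop. Over the 9 fatty acid enzymes it was -0.09, -0.11, 0.08 and -0.05 in ICI, against 0.06, 0.0050, 0.05 and 0.05 in Scop, so ICI replicate 2 lay lowest there.

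Hmgcs1 followed another order. Its highest libraries, Scop replicate 2 at 233 FPKM and ICI replicate 4 at 221 FPKM, were those in which the other 16 enzymes were lowest on average. Idi1, in contrast, was at 28.7, 28.1, 26.6 and 21.6 FPKM in ICI, against 28.2, 23.4, 27.4 and 32.0 in Scop, and had its lowest values in the same pair of libraries. The ratio of Hmgcs1 to Idi1 levels therefore stood at 10.2 in ICI replicate 4 and 9.94 in Scop replicate 2, and between 5.03 and 6.65 in the other 6 libraries. Highest over lowest library was 1.62 for Hmgcs1 and for Insig1, the widest of all members, and 1.11 for Mvk, the narrowest (median 1.27). Hmgcs1 and Idi1 were paired after their values had been seen.

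Lists of further lipid genes place the members in their surroundings. Of 11 other sterol and isoprenoid genes 10 were tested, with a median log2 fold change of -0.05 and 0 higher in ICI at an unadjusted p under 0.05. At that threshold 4.56% of all tested genes were higher and 7.46% lower. Nus1, a subunit of the enzyme that makes dolichol, was lower in ICI at that threshold, at 11.6 ± 1.19 FPKM in ICI and 13.2 ± 0.87 in Scop (SD, n = 4 each), a log2 fold change of -0.18 (SE 0.08). It lost the call under median-ratio scaling and without replicate 2 or 3 of ICI or replicate 1, 2 or 3 of Scop. Of 11 other genes of SREBP control, all tested, none reached the threshold (median -0.01), among them Erlin2, a sterol-responsive membrane protein gene (0.10, SE 0.05). Over all tested genes 12.0% reached it in either direction. Of 23 other fatty acid synthesis genes 16 were tested, and 1 was higher (6.25%), where 4.56% of all tested genes were higher. This was Me1, a malic enzyme that supplies NADPH (4.34 ± 0.18 FPKM in ICI and 3.66 ± 0.29 in Scop, SD, n = 4 each). Me1 lost the call without replicate 2 of Scop. Elovl4, an elongase of very long chains, was at 0.399, 0.232, 0.466 and 0.217 FPKM in ICI, against 0.564, 0.516, 1.43 and 0.318 in Scop, highest in Scop replicate 3. That library had the most conjunctival and the most sebaceous marker RNA and the least keratocyte marker RNA. The part of these shares in the Elovl4 values was not tested. The log2 fold change of Elovl4, -0.33 (SE 0.17), did not reach the threshold. It was -0.14 without Scop replicate 3, -0.44 without Scop replicate 4, where it passed, -0.78 with a pseudocount of 0.1 and -0.93 by limma-voom.

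Some genes of uptake, handling and oxidation had larger log2 fold changes than any member. Vldlr, a receptor for triglyceride-rich lipoproteins, was at 1.13, 1.24, 1.43 and 0.968 FPKM in ICI, against 0.659, 0.625, 0.481 and 0.700 in Scop. The groups did not overlap, and the log2 fold change was 0.44 (SE 0.09, limma's unadjusted p = 0.000620, adjusted p = 0.162). The size of this low gene's difference depends on the scale: it was 0.85 with a pseudocount of 0.1, 0.14 with a pseudocount of 5 and 0.95 by limma-voom, in each case under an unadjusted 0.05. It was the 1 of 16 tested genes of sterol uptake, efflux and storage at the threshold (6.25%), with 0 lower. Of all tested genes 4.56% were higher and 7.46% lower. Of 17 genes of acyl-CoA and glycerolipid synthesis 3 were lower and 0 higher, where 7.46% of all tested genes were lower. Acsl4, an acyl-CoA synthetase that prefers arachidonate, was at 7.79 ± 0.60 FPKM in ICI and 9.24 ± 0.26 in Scop (SD, n = 4 each, as for the next genes). Plin2, a lipid droplet coat protein gene, was at 7.68 ± 1.05 FPKM in ICI and 9.39 ± 0.71 in Scop, and Acsl3, an acyl-CoA synthetase of lipid droplets, at 12.6 ± 1.27 FPKM in ICI and 14.4 ± 0.98 in Scop. The groups did not overlap for Acsl4 and Plin2, and both stayed under 0.05 in all 17 alternatives. Acsl3 lost the call under median-ratio scaling, without replicate 4 of ICI, without replicate 2, 3 or 4 of Scop, and without replicate 1 of ICI, where its log2 fold change was -0.12. Fabp5, a fatty acid carrier of epithelia, had a log2 fold change of 0.33 without reaching the threshold (limma's unadjusted p = 0.0508). It was at 193, 157, 175 and 190 FPKM in ICI, against 118, 122, 202 and 136 in Scop, so Scop replicate 3 alone overlapped with ICI. Without that library the log2 fold change was 0.50, and over all refits with 1 library left out it ran from 0.25 to 0.50. It came under the threshold without Scop replicate 3 or ICI replicate 2, by limma-voom and with libraries scaled to a common sum.

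Of 14 genes of fatty acid oxidation 4 were higher in ICI and 1 lower at an unadjusted p under 0.05, where 4.56% of all tested genes were higher and 7.46% lower. Slc25a20, the carnitine carrier of the mitochondrial membrane, was at 15.2, 13.9, 16.1 and 14.5 FPKM in ICI, against 13.3, 12.4, 10.9 and 11.6 in Scop, with no overlap and a log2 fold change of 0.29 (SE 0.07, limma's unadjusted p = 0.00243, adjusted p = 0.204). Decr1, a reductase for unsaturated fatty acids, had 0.26 (SE 0.10), Acadl, a long-chain dehydrogenase, 0.19 (SE 0.08), and Cpt1a, which forms acylcarnitines and was named after its value had been seen, 0.16 (SE 0.07). Acadvl, the dehydrogenase of very long chains, was lower without overlap (-0.12, SE 0.05). Slc25a20 stayed under 0.05 in all 17 alternatives run, and the others did not. Median-ratio scaling lost Acadl, Cpt1a and Acadvl. Decr1 lost the call without replicate 2 or 4 of ICI or replicate 3 of Scop, where it had 0.16. Acadl lost it without replicate 2 or 3 of ICI or replicate 1, 2 or 4 of Scop, and Cpt1a without those libraries or replicate 4 of ICI. Acadvl lost it without replicate 2 or 4 of ICI or replicate 2 or 3 of Scop. The median of the list was 0.02, and no gene of any of these lists passed limma's test adjusted over all genes, with the smallest adjusted p that of Vldlr.

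**Figure D5:**
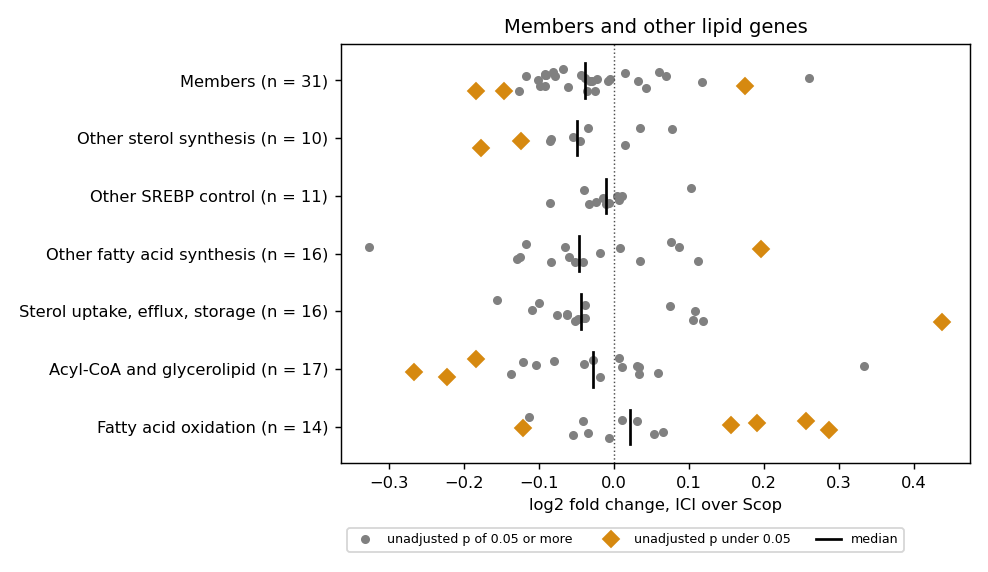
Log2 fold change, ICI over Scop, of the members and of 6 further lists of lipid genes, with 1 point per tested gene, the median as a bar and diamonds for an unadjusted p under 0.05. The medians lie between -0.05 and 0.02, and Vldlr (0.44), Fabp5 (0.33) and Slc25a20 (0.29) lie to the right of all members.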

How the data were processed

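RNA was sequenced from 8 samples, each a pool of 4 corneas. Strandedness, software versions and the gene annotation: not given in the sources used here. The submitters' processing notes name the read trimmer fastp, the aligner HISAT2, the counter HTSeq and build mm10. FPKM values were deposited as a single table, with no further scaling stated, and its columns were matched to samples by title. Coordinates are those of RefSeq genes of GRCm38.p6, 1-based. Ratios between libraries gave back whole fragments (99.8% of genes, ratios read within 5e-13, whole within 0.01). Recovered totals, taken relative to ICI replicate 1, matched the relative step depths to within 0.0191%.

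The test was limma 3.58.1 in R 4.3.3 on log2(FPKM + 1), two-sided, over the 12100 genes averaging 0.5 FPKM or more, adjusted by Benjamini-Hochberg with 0.05 as threshold. Fold changes on this scale understate those of low genes. The fit was tested on simulated data. Members and lists were chosen with earlier results of these data known. Named beside the members are up to 4 genes per lipid list with the smallest p. A gene that this rule would name is not reported here. Alternatives were pseudocounts of 0.1 and 5, no filter or 5 FPKM, median-ratio and common-sum scaling, no variance trend, the replicate number as a block, limma-voom on recovered fragments, and leaving out each library.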

Additional observations from a re-analysis of the deposited data

Results flagged for a closer look

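In each group of 4 libraries the highest and the lowest value of every member were set against the rest by Dixon's criterion. Of 62 groups checked, 4 held a library far from the other 3. Chance alone gives about 1 in 20, so this count lies near that rate. Hmgcs1 stood apart in Scop replicate 2 at 233 FPKM, above 162, 168 and 162 in the other Scop libraries. Cyp51 stood apart in ICI replicate 3 at 59.4 FPKM, and so did Nsdhl in the same library at 43.4 FPKM. Mvk stood apart in Scop replicate 1 at 28.4 FPKM, below 30.9, 30.9 and 30.6 in the other Scop libraries, although the difference is small.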

How the results depend on the processing

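Under all 17 alternatives limma called 0 members after adjustment in either direction (lowest adjusted p 0.202, Tm7sf2 without Scop replicate 3). At an unadjusted p under 0.05 the main counts were 1 higher and 2 lower. Median-ratio scaling gave 1 lower, since Fasn was lost. With 1 library left out, counts ran from 0 to 2 higher and from 0 to 3 lower. Deviations of same-numbered libraries correlated at 0.287, -0.00927, 0.138 and 0.0769, and 3 of 8 libraries correlated best with their own number. These values do not settle whether the replicate numbers pair the libraries. With the replicate number as a block the counts were 2 higher (Insig1 and Tm7sf2) and 1 lower (Acaca). Among the other named genes, the block brought Elovl4 and Fabp5 under the threshold, while Nus1, Cpt1a and Acadvl lost the call. Without the variance trend Nus1, Acadl, Cpt1a and Acadvl missed it, and Cpt1a also with the common sum.

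Of 527 member values under alternatives 25 changed sign, in 10 members whose own log2 fold change was at most 0.08 in size. Median-ratio scaling gave Msmo1 0.00283 and Sc5d 0.00541. With 1 library left out, log2 fold changes ran from -0.14 to 0.096 for Hmgcs1, -0.15 to 0.0090 for Idi1, -0.081 to 0.040 for Fdps, -0.046 to 0.11 for Fdft1, -0.080 to 0.042 for Msmo1, -0.051 to 0.033 for Sc5d, -0.11 to 0.0050 for Scd2, -0.018 to 0.053 for Elovl5, -0.090 to 0.010 for Elovl6 and -0.035 to 0.096 for Stard4. The median of all members ran from -0.081 to -0.016. The median of the mevalonate and sterol enzymes ran from -0.077 without ICI replicate 3 to 0.0090 without ICI replicate 4, and that of the fatty acid enzymes stayed negative, from -0.12 to -0.064. The cause of these changes was not tested. Every member had at least 838 fragments in every library.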
